A study of Mus musculus with 6 samples.

Results

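Irg1 and 8 genes of the tricarboxylic acid (TCA) cycle, namely Cs, Idh1, Idh2, Idh3a, Ogdh, Sdha, Sdhb and Mdh2, were examined in bone marrow-derived macrophages (BMMs) cultured with or without cartilage fragments. These 9 of the 24394 gene symbols in the files were chosen by name, and the FPKM (Cufflinks values scaled to transcript length and library size) of every line carrying the symbol were summed in each library. All 9 reached the mean of 1 FPKM that was required for testing, as did 10352 symbols in all. BMMs of C57BL/6 mice, postnatal day 28 in the labels, were grown for 7 days with 50 ng/ml macrophage colony-stimulating factor, and 3 samples then received 5 cartilage fragments per macrophage for 24 h while 3 control samples received none (below, stimulated and control libraries). The mice were wild type in both groups, and the labels do not say whether the 3 samples of a group came from separate mice or cultures, so the p-values measure the spread between these libraries alone. The fragments were crushed from femoral head cartilage of the same mice, and in cultures of this kind more RNA per cell and more cells of one type cannot be told apart.

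The TCA cycle oxidizes acetyl groups in the mitochondrion and supplies electrons to the respiratory chain. Citrate synthase joins the acetyl group to oxaloacetate, citrate becomes isocitrate by way of cis-aconitate, and 2-oxoglutarate, succinate, fumarate and malate follow. Irg1, now named Acod1, encodes the mitochondrial aconitate decarboxylase that draws cis-aconitate out of the cycle and makes itaconate, and it is known as a gene that macrophages induce under inflammatory stimuli. Itaconate is known to inhibit succinate dehydrogenase, the enzyme of which Sdha and Sdhb encode subunits.

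Each library rested on 699000 to 777000 sequenced fragments (read pairs), as estimated from the coverage and FPKM that Cufflinks listed. The study states far more reads per sample, the reason for the gap is not known, and every fragment count and counting interval below rests on the estimate. All 8 macrophage markers were tested, and their sum, most of it Lyz2, was 29403 to 39170 FPKM in control libraries and 29975 to 40164 FPKM in stimulated libraries. Of these, 7 were above 0 in log2 difference with a median of 0.35, and 3 of the 8 (Adgre1, Itgam and Cd14) lay wholly above the controls, although 0 passed the threshold. Mertk was listed at 0 in control replicates 1 and 2, and the other 7 were above 0 in every library. Chondrocyte markers summed to 2.40 to 5.21 FPKM in control libraries and 1.44 to 3.35 FPKM in stimulated libraries, and 10 of the 16 in the files, among them Col9a1, Matn1 and Hapln1, were at 0 in all libraries. The 5 lymphocyte markers were at 0, and dendritic cell markers summed to at most 3.00 FPKM. The sum of neutrophil and precursor markers overlapped between groups (935 to 1085 FPKM in control libraries and 875 to 1260 FPKM in stimulated libraries). Of their 8 tested genes 0 passed the threshold, and Mmp8 alone lay wholly below the controls (means 154 and 122 FPKM). The sum of fibroblast markers did not overlap, with 152 to 169 FPKM in control libraries and 103 to 119 FPKM in stimulated libraries. Most of that sum was Col1a1 and Col1a2, and 0 of the 4 tested genes passed the threshold. Of these 4, only Col1a1 lay wholly below the controls (means 79.0 and 47.8 FPKM). Col1a2, Col3a1 and Dcn overlapped between groups, and Dcn had a log2 difference above 0 (0.28). The part of these cells in the values below was not tested. Across all tested genes, 0.145% were higher and 0.0386% lower at an adjusted p under 0.05 (limma, Benjamini-Hochberg), and in 8.73% the lowest stimulated library lay above the highest control, and in 6.13% the reverse held.

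The sequences before the starts of Irg1 and Idh1 are shown because these were the members whose groups did not overlap, the one higher and the other lower. Both are the 250 bases before the RefSeq start on GRCm38.p6 (the assembly of mm10), read on the strand of the gene, and capitals mark the TATA box, the only motif found of those searched. Irg1 lies on the plus strand at chr14:103046762-103047011 and Idh1 on the minus strand at chr1:65179143-65179392.

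Irg1: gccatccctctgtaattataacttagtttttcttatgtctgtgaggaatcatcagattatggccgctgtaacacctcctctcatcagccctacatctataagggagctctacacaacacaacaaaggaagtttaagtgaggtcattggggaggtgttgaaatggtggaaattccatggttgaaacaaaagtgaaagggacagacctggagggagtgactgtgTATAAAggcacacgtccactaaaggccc

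Idh1: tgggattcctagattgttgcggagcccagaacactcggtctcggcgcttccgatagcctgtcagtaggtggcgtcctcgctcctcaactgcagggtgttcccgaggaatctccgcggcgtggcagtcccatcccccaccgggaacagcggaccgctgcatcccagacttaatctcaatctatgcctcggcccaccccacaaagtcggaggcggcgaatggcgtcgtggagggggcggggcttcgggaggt

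The letters TATAAA began at position -28 before the start of Irg1, and 12.4% of 32851 RefSeq promoters of this length held them on either strand. Searched as well on both strands were TGANTCA (AP-1, in 6.75% of promoters), TTGCNNAA (C/EBP, 9.56%), GAAANNGAA (the core of the interferon-stimulated element, 7.13%), GCGCNTGCG (nuclear respiratory factor 1, 5.19%), TNAAGGTCA (estrogen-related receptors, 1.14%) and the NF-κB consensus (7.25%). None of these was in the window of Irg1 or Idh1, which says only that the letters are not there. Only exact matches were sought, the NF-κB consensus as GGGRNNYYCC (R is A or G, Y is C or T, N is any base). Sites close to the letters were not searched for. The promoter of Irg1 held 2 CG dinucleotides, where the median promoter held 6. The 7 enzymes with an entry held between 9 (Sdhb) and 23 (Mdh2). Among these 7, Sdha held 3 matches to the letters of nuclear respiratory factor 1 and 1 to those of C/EBP, and Idh2 and Sdhb held 1 match each to the NF-κB consensus. Idh3a had no entry in the table of promoters used.

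Irg1 was the member that rose. Irg1 (NM_008392, chromosome 14, 103047012 to 103056573 on mm10, plus strand, 5 exons) had 6.55, 8.42 and 7.98 FPKM in the 3 control libraries and 51.3, 58.8 and 57.0 FPKM in the 3 stimulated libraries. All stimulated libraries were far above all controls, and replicates lay close together in both groups. The mean went from 7.65 ± 0.979 to 55.7 ± 3.92 FPKM (SD, n = 3), which is 7.28-fold, and the log2 difference was 2.85 (standard error 0.163, 95% confidence interval 2.45 to 3.25, adjusted p = 0.0105 from limma). Cufflinks itself gave intervals that reached at most 12.4 FPKM in a control library and began at 39.3 FPKM or above in a stimulated library. Irg1 is among the genes that the study selected on these same libraries, so the rise is not independent evidence.

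The size of the rise of Irg1 was steadier than its adjusted p. On leaving out each library in turn, the log2 difference stayed between 2.75 and 2.93, while the adjusted p from limma was 0.11 without stimulated replicate 1, 0.0612 without stimulated replicate 2 and 0.0594 without stimulated replicate 3. It remained under 0.05 without any 1 control library. When transcripts that Cufflinks had assembled without a gene name were added to the gene of their locus, the values of Irg1 stayed as they were, since none lay at its locus, and its adjusted p was 0.000513 from limma, with 0.309% of all genes higher. Irg1 rested on 41 sequenced fragments over the controls and 288 over the stimulated libraries, and counting error alone gives the log2 ratio of these sums (2.88) an exact 95% interval of 2.40 to 3.39.

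**Figure D1:**
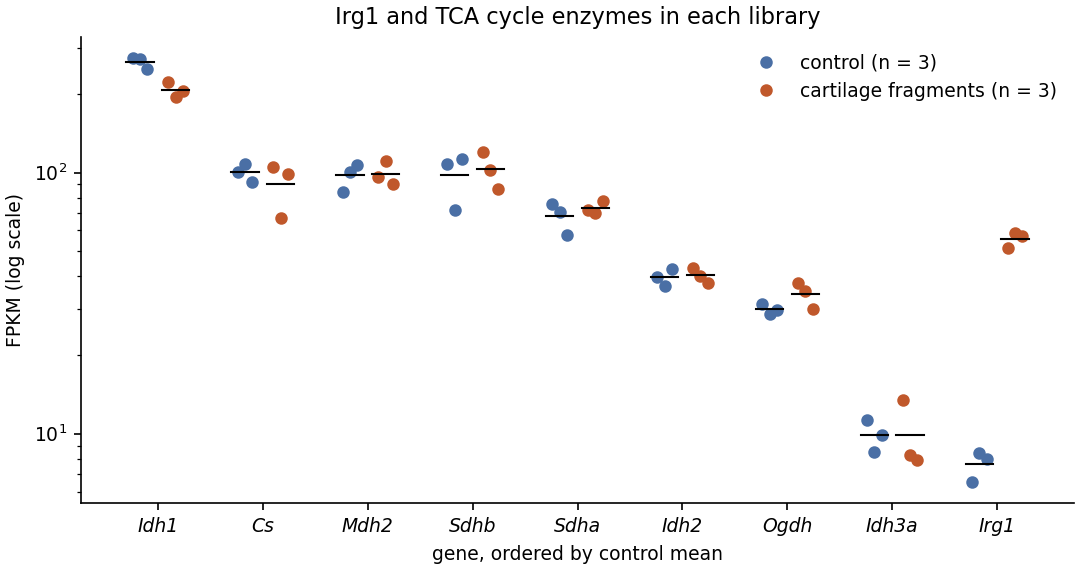
FPKM of Irg1 and 8 TCA cycle enzymes on a log axis, with 1 point per library and a line at the mean of each group (n = 3), control in blue and cartilage fragments in orange. Irg1 moved from the lowest mean of the 9 genes (7.65 FPKM) to 55.7 FPKM, Idh1 was lower in all stimulated libraries, and the groups of the other genes overlapped.

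Among the enzymes of the cycle, past an adjusted p of 0.05 were 0 of the 8 (limma), and at an unadjusted p under 0.05 there was 1, Idh1. Of all 10352 tested genes, 19 passed the adjusted threshold and 675 had an unadjusted p under 0.05. With so few genes past the threshold in all, 0 of the 8 does not set the enzymes apart. The log2 difference was above 0 in 5 and below 0 in 3, with a median of 0.02, which is also the median of all tested genes (0.02). In 7 of the 8 the groups overlapped. The 95% confidence intervals of the 8 log2 differences all lay between -0.70 and 0.63, whereas the interval of Irg1 began at 2.45. For the 7 whose interval includes 0, a difference that lies inside the interval of the gene remains compatible with the values at this depth and number of libraries. The intervals do not give the smallest difference that would pass the threshold over all genes.

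Idh1 encodes the isocitrate dehydrogenase of cytosol and peroxisome, which uses NADP and stands beside the cycle. Idh1 (NM_010497, chromosome 1, 65158616 to 65179142, minus strand, 9 exons) had 275, 273 and 248 FPKM in control libraries and 223, 195 and 206 FPKM in stimulated libraries. The highest stimulated library was below the lowest control. The means were 265 ± 14.8 and 208 ± 14.03 FPKM (SD, n = 3), so that the stimulated level was 78.3% of control, and the log2 difference was -0.35 (standard error 0.0814, 95% confidence interval -0.55 to -0.15). Idh1, like Irg1, is among the genes that the study selected on these libraries. In this fit it did not pass over all genes (adjusted p = 0.377 from limma, and 0.169 to 0.804 over 19 alternatives of filter, scaling, unit and libraries). The second reference transcript of Idh1, NM_001111320, was listed at 0 in every library. The summed fibroblast markers given above were likewise lower in the stimulated libraries, although among their tested genes only Col1a1 was so without overlap. Their part in the values of Idh1 was not tested.

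In a setting chosen after the values were seen, sequenced fragments per gene were estimated from the coverage, transcripts assembled at the locus were added, and the sum was scaled to 1000000 fragments per library. Idh1 then had 545 ± 31.1 scaled fragments in controls and 426 ± 28.8 in stimulated libraries (SD, n = 3), a log2 difference of -0.35 (limma, adjusted p = 0.00266). In that setting 0.869% of all genes were lower and 1.69% higher, and among the 8 enzymes Idh1 was the only gene past the threshold. Without stimulated replicate 2 its adjusted p there was 0.0557 from limma, and between 0.00135 and 0.0423 on leaving out each of the other 5. No assembled transcript lay at Idh1, and its log2 difference was -0.35 in both settings. Its standard error was 0.0814 in FPKM and 0.0736 in scaled fragments, so the lower p came with little change in the difference or its standard error. The cause of the lower p was not tested.

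**Figure D2:**
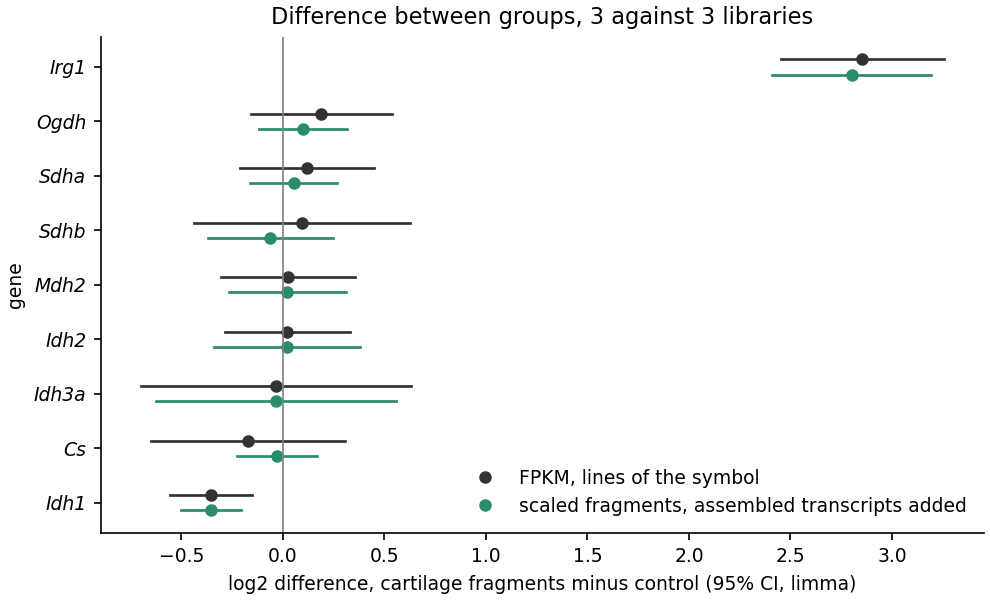
Log2 difference between macrophages with cartilage fragments and controls, with 95% confidence intervals from limma (3 against 3 libraries), from FPKM of the lines of each symbol (black) and from scaled fragments with assembled transcripts added (green). Irg1 stands at 2.85 and 2.80, Idh1 lies below 0 in both, and the intervals of the other 7 genes include 0.

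Idh2 and Idh3a encode mitochondrial isocitrate dehydrogenases, the first using NADP and the second being the catalytic subunit of the NAD-dependent enzyme of the cycle. Idh2 (NM_173011, chromosome 7, 80094847 to 80115350, minus strand, 11 exons) had 39.9, 36.7 and 42.6 FPKM in control libraries and 43.1, 40.3 and 37.7 FPKM in stimulated libraries, and the groups lay on top of each other (log2 difference 0.02, 95% confidence interval -0.29 to 0.33). Idh3a (NM_029573, chromosome 9, 54586511 to 54604662, plus strand, 11 exons) had 11.2, 8.51 and 9.89 FPKM in control libraries and 13.4, 8.28 and 7.89 FPKM in stimulated libraries. Stimulated replicate 1 was the highest of the 6 and the other 2 stimulated libraries were the lowest. Idh3a rested on 49 read pairs over all controls and 47 over all stimulated libraries, the fewest among the enzymes, and its interval was the widest (-0.70 to 0.63). The partner subunits of the same enzyme, Idh3b and Idh3g, had log2 differences of 0.06 and -0.31, neither past the threshold. The ratio of Idh1 to Idh2 within a library was 6.88, 7.44 and 5.82 in controls and 5.16, 4.83 and 5.46 in stimulated libraries, without overlap.

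Cs encodes citrate synthase, which opens the cycle. Cs (NM_026444, chromosome 10, 128337832 to 128362479, plus strand, 11 exons) had 100.1, 107.9 and 92.2 FPKM in control libraries and 105.4, 66.7 and 98.7 FPKM in stimulated libraries. The low value of stimulated replicate 2 lay beside assembled transcripts at the same locus, which held 51.3 and 33.9 FPKM in that library. Control replicate 2 also had an assembled transcript there, with 12.6 FPKM. Counted as fragments with the assembled transcripts added, Cs had 262, 315 and 241 scaled fragments in controls and 276, 264 and 258 in the stimulated libraries. In that unit stimulated replicate 2 no longer stood apart. In FPKM with them added it was instead the highest library, with 151.9 FPKM. Controls then had 92.2 to 120.6 FPKM, and stimulated replicates 1 and 3 had 105.4 and 98.7 FPKM. The log2 difference was -0.17 from the FPKM of the symbol (95% confidence interval -0.65 to 0.30), 0.17 from FPKM with assembled transcripts, and -0.03 from scaled fragments (95% confidence interval -0.23 to 0.17), and it passed in none of them (adjusted p = 0.805, 0.811 and 0.959 from limma).

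Ogdh encodes the decarboxylating subunit of the 2-oxoglutarate dehydrogenase complex. Ogdh (NM_010956, chromosome 11, 6291597 to 6359094, plus strand, 23 exons) had 31.4, 28.8 and 29.9 FPKM in control libraries and 37.8, 35.2 and 30.0 FPKM in stimulated libraries, summed over its 5 reference transcripts. The stimulated libraries reached higher, and the lowest of them lay among the controls (log2 difference 0.19, 95% confidence interval -0.16 to 0.54). Control replicate 2 held a further 6.04 FPKM on an assembled transcript, and with it added the log2 difference was 0.10. Cufflinks divided the gene unevenly between nearly identical transcripts, so that NM_001252288 was listed at 10.9, 0 and 0 FPKM in control libraries and at 23.2, 0 and 8.98 FPKM in stimulated libraries, and such lines were not read apart. Dlst and Dld, which encode the other subunits of the complex, had log2 differences of 0.31 and 0.13 with overlapping groups.

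Sdha and Sdhb encode the flavoprotein and the iron-sulfur subunit of succinate dehydrogenase, which is also complex II of the respiratory chain. Sdha (NM_023281, chromosome 13, 74322255 to 74350240, minus strand, 15 exons) had 75.4, 70.5 and 57.7 FPKM in control libraries and 71.8, 70.1 and 77.9 FPKM in stimulated libraries. Sdhb (NM_023374, chromosome 4, 140961271 to 140979192, plus strand, 8 exons) had 107.8, 72.0 and 112.6 FPKM in control libraries and 119.6, 102.0 and 86.8 FPKM in stimulated libraries. For both genes the lowest control was the library in which an assembled transcript shared the locus, with 8.39 FPKM at Sdha in control replicate 3 and 27.2 FPKM at Sdhb in control replicate 2. With these added the log2 difference of Sdha went from 0.12 to 0.05 and that of Sdhb from 0.09 to -0.06, and neither passed in any setting. The remaining subunit genes, Sdhc and Sdhd, had log2 differences of 0.20 and -0.02.

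Mdh2 encodes mitochondrial malate dehydrogenase, which closes the cycle. Mdh2 (NM_008617, chromosome 5, 135778649 to 135790386, plus strand, 9 exons) had 84.5, 100.9 and 107.2 FPKM in control libraries and 96.3, 110.8 and 90.1 FPKM in stimulated libraries. The groups overlapped almost fully (log2 difference 0.02, 95% confidence interval -0.31 to 0.36). Mdh1, the cytosolic enzyme, had a log2 difference of -0.12 and did not pass either.

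**Figure D3:**
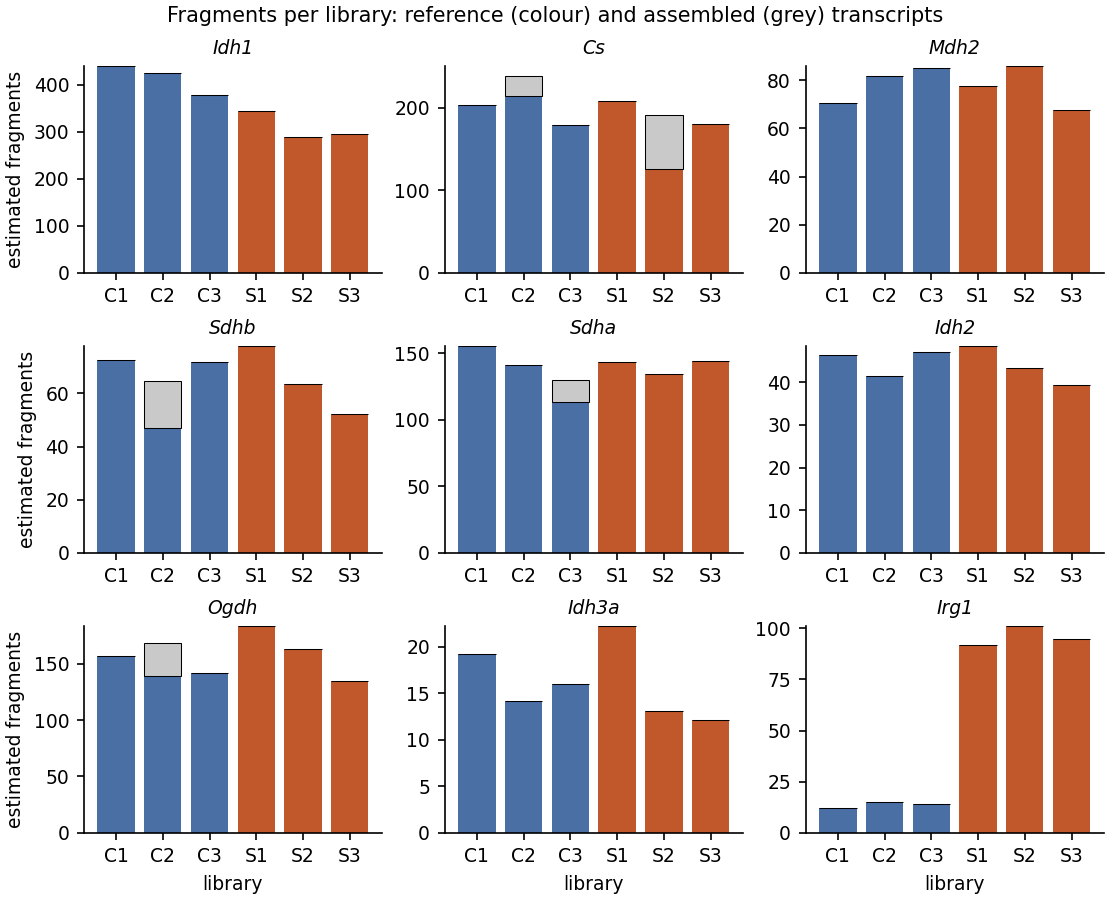
Estimated sequenced fragments (read pairs) of each gene in control libraries C1 to C3 (blue) and in libraries with cartilage fragments S1 to S3 (orange), with those of assembled transcripts at the locus stacked in grey. Assembled transcripts took 20.1 and 44.5 fragments at Cs in S2 and 17.7 fragments at Sdhb in C2, and Irg1 rose from between 12.1 and 15.2 to between 91.9 and 101.0 fragments without any.

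In FPKM, which is a scale per length, the order of the levels in controls was Idh1, Cs, Mdh2, Sdhb, Sdha, Idh2, Ogdh, Idh3a and Irg1. Neighbours from Cs to Sdha overlapped in range, and Idh1 at the top and the genes from Idh2 downward did not overlap with the next. Irg1, with 6.55 to 8.42 FPKM, lay just under Idh3a, with 8.51 to 11.2 FPKM. In stimulated libraries Irg1 stood sixth, below Sdha (70.1 to 77.9 FPKM) and above Idh2 (37.7 to 43.1 FPKM), with no overlap to either side. Of all tested genes 42.6% had a lower mean than Irg1 in controls and 88.6% had a lower mean in stimulated libraries, while Idh1 stood above 97.6% and 96.9%.

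Within a library, Irg1 amounted to 0.903, 1.21 and 1.14 per 100 FPKM of the 8 enzymes together in controls and to 7.22, 9.36 and 8.98 in stimulated libraries. The enzymes together held 725, 698 and 700.2 FPKM in control libraries and 710, 628 and 635 FPKM in stimulated libraries. The Irg1 level was 0.583, 0.989 and 0.807 times that of Idh3a in controls and 3.82, 7.10 and 7.23 times in stimulated libraries. Irg1 rose against both, while the groups overlapped in the enzymes together and in Idh3a.

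Genes around the cycle were followed in 6 lists of 54 genes, of which 49 were tested. Past an adjusted p of 0.05 were 0 of the 49 (limma), in the FPKM of the symbols and in every alternative, and 2 had an unadjusted p under 0.05, Pdha1 and Glul. Of all 10352 tested genes, 19 and 675 did so in the FPKM of the symbols. The median log2 difference of the 49 was 0.07. In 10.2% of them the whole stimulated group lay above the whole control group, against 8.73% of all tested genes, and in 8.16% below, against 6.13%.

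The other enzymes and subunits of the cycle were 13 tested genes with a median log2 difference of 0.07, from 0.31 for Dlst to -0.31 for Idh3g. Aco1, the cytosolic aconitase that also serves as an iron sensor, was the only one of the 13 whose groups did not overlap, with 20.8 to 23.1 FPKM in control libraries and 16.6 to 20.6 FPKM in stimulated libraries (log2 difference -0.27, adjusted p = 0.797 from limma). For assembly of succinate dehydrogenase 4 genes were tested, from 0.17 for Sdhaf2 to -1.85 for Sdhaf3. Sdhaf3 was listed at 0 in stimulated replicate 2 and at 7.53 to 11.9 FPKM in the other 5 libraries, so that 1 library set its value.

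For the entry of pyruvate 12 genes were tested, with a median log2 difference of 0.19, from 0.53 for Pdk3, a kinase that inhibits pyruvate dehydrogenase, to -0.89 for Pdp2, a phosphatase that activates it. Pdha1, which encodes a subunit of pyruvate dehydrogenase, had 17.01 to 18.8 FPKM in control libraries and 21.9 to 26.0 FPKM in stimulated libraries (log2 difference 0.37, adjusted p = 0.737 from limma). Pdk1 was the other gene of this list whose stimulated libraries all lay above the controls. For export and cytosolic use of citrate and dicarboxylates 7 genes were tested, with a median of -0.12, from 0.25 for Acly, which encodes ATP citrate lyase, to -0.33 for Me2, a malic enzyme. For the supply of glutamine and aspartate 8 genes had a median of -0.08, and the highest was Got2, which encodes a mitochondrial aspartate aminotransferase, with 0.25. Glul, which encodes glutamine synthetase, had 169 to 182 FPKM in control libraries and 191 to 205 FPKM in stimulated libraries (log2 difference 0.19, adjusted p = 0.716 from limma).

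For the response to itaconate and succinate 5 genes were tested, with a median log2 difference of 0.09, from 0.20 for Clybl, whose product takes part in the breakdown of itaconate, to -0.18 for Mut. Hmox1, a target of the factor Nrf2, measured 551 ± 30.2 FPKM in controls against 584 ± 11.7 FPKM in stimulated libraries (SD, n = 3). Atf3, a stress-induced transcription factor, had 178 ± 12.5 and 162 ± 4.82 FPKM, without overlap (log2 difference -0.14, adjusted p = 0.797 from limma). Sucnr1, the succinate receptor, was listed at 0 in all libraries.

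**Figure D4:**
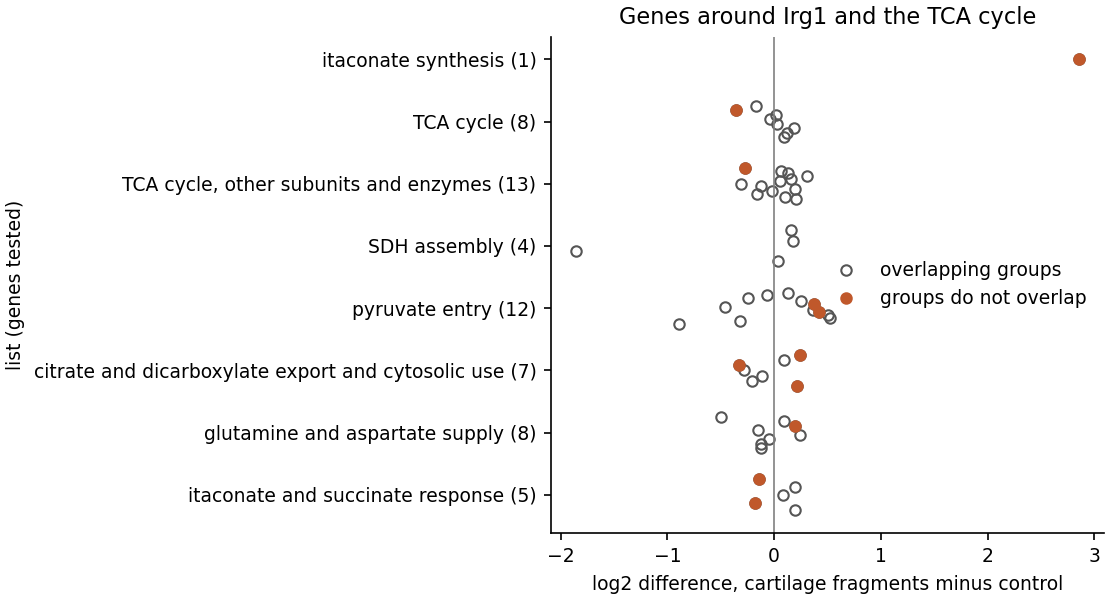
Log2 difference between macrophages with cartilage fragments and controls for each tested gene, by list, with filled points where the groups of 3 libraries did not overlap. Irg1 stands alone at 2.85, and the other genes lie between -1.85 (Sdhaf3, listed at 0 in 1 library) and 0.53 (Pdk3).

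The genes whose log2 levels followed Irg1 most closely over the 6 libraries were Aldoa (Pearson's r = 0.999), Il1b (0.998), Doc2a (0.997), Marco (0.997) and Prdx1 (0.996), and 13 of all tested genes reached 0.99. With 2 groups of 3 this measure mostly reflects the step between the groups and small spread within them, and it carries no p. Il1b, which encodes a cytokine of inflammation, had 2.32 to 2.42 FPKM in control libraries and 14.4 to 15.5 FPKM in stimulated libraries (log2 difference 2.60, adjusted p = 0.0163 from limma). In each group Il1b rose from replicate 1 to replicate 3 while the estimated fragments of the library fell. Whether its small spread is that of few read pairs scaled to library size was not tested. Fragments were given for the members only, so the counting error of Il1b and Doc2a, both low in FPKM, is not known here. Marco, a scavenger receptor, had 18.3 to 32.3 and 350.2 to 415 FPKM. Aldoa, a glycolytic enzyme, and Prdx1, a peroxiredoxin, differed far less between groups (log2 differences 0.21 and 0.27, adjusted p = 0.122 and 0.0467 from limma), and Doc2a was listed at 0 in all controls and at 2.45 to 2.74 FPKM in stimulated libraries.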

How the data were processed

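RNA of 3 control and 3 stimulated samples of mouse bone marrow-derived macrophages was sequenced as stranded paired-end reads of 100 bp. Alignment by the authors to mm10 used TopHat with Bowtie. The deposited FPKM are Cufflinks values per transcript, 1 set per library. The deposited coverage is the mean read depth that Cufflinks lists beside them. Tool versions are not given in the sources used here, and whether the TMM normalization named in the methods entered these values is not stated. Positions are those of the files with 1 added to the start, and strands and exon numbers come from GENCODE M21.

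FPKM of all lines with a symbol were summed, 0.1 was added and log2 taken, and the group difference was fitted in R 4.3.3 by limma 3.58.1 (trend and robust, two-sided, Benjamini-Hochberg over the 10352 genes averaging 1 FPKM or more). An exact permutation test of 3 against 3 libraries cannot go under 0.1. Assembled transcripts carry no symbol and can take fragments from a gene. They were added in an alternative where they shared a locus with 1 symbol. Fragments are coverage times effective length over read length. The effective length is the length minus 205 to 212 bp, chosen in each library to bring the most low values within 0.1 of a whole number. With it 93.5% to 94.2% of low values did so, and since the offset was fitted to this share, the share does not check the estimate. Intervals on fragments cover counting error only. No replicates were identical. The mean chi-square per gene on fragments of the symbol lines was 4.89 to 6.69 within groups and 5.29 to 7.58 between groups, and with assembled transcripts added it was 1.45 to 1.60 within and 2.00 to 2.50 between. The procedure was run on simulated data without the division of fragments between transcripts and with larger differences than those of the enzymes. That run does not show how it performs on differences as small as theirs. Other steps used numpy 2.4.6, pandas 2.3.3, matplotlib 3.10.9 and scipy 1.17.1 under Python 3.11.15.

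Members, lists and motifs were chosen with earlier results of these data known. All 9 members are named, and from each list the genes past the threshold, the highest and the lowest, the partners of a member, and the 5 genes most like Irg1 by Pearson's r. Pdha1, Pdk1, Glul, Hmox1, Aco1, Atf3 and Sucnr1 were added once values had been seen. The alternatives varied the pseudocount, filter, scaling, moderation, replicate block, transcript lines, unit or libraries. Some results that this rule would name are not reported here.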

Additional observations from a re-analysis of the deposited data

How the results depend on the processing

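Irg1 kept a positive log2 difference of 2.70 to 2.93 in all 26 alternatives and passed the threshold in 22. These 22 include the reference transcripts alone, which repeat the main fit. They also include the scaled fragments with assembled transcripts, chosen after the values were seen, and the 6 fits with 1 library left out there. It did not pass with a replicate block (2.85, adjusted p = 0.207 from limma) or with any 1 stimulated library left out in FPKM. With 1 library left out its log2 difference ran from 2.75 to 2.93, and from 2.70 to 2.87 in scaled fragments with assembled transcripts. The deviations of same-numbered libraries from their group means had r = 0.0282, -0.00473 and 0.00831. This cannot settle whether they were paired, since other spread in these values could hide a shared deviation, and the labels do not say. Under the block 0 genes passed in all. The count of genes past the threshold was 19 (15 higher, 4 lower), 8 with a pseudocount of 0.01, 12 with a mean of at least 5 FPKM, 38 with assembled transcripts added and 265 in scaled fragments with these added (175 higher, 90 lower). It ran from 0 (without stimulated replicate 1) to 19 with 1 library left out, with 10 without control replicate 2, 2 without stimulated replicate 2 and 6 without stimulated replicate 3, and from 160 to 224 in scaled fragments with assembled transcripts. Of the 8 enzymes 1, Idh1, passed in scaled fragments with assembled transcripts, and with 1 library left out there 0 to 1. Using reference transcripts only changes nothing by construction. The cause of these differences was not tested.

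None of the other 7 enzymes passed in any alternative, and their signs turned as follows. Scaling to equal totals gave -0.0138 for Idh2 and -0.0116 for Mdh2, and quantile normalization -0.0301 and -0.0233. The largest single transcript line gave -0.0053 for Ogdh. Assembled transcripts gave 0.168 for Cs and -0.0617 for Sdhb, and scaled fragments with them -0.0622 for Sdhb. With 1 library left out, log2 differences ran from -0.300 to 0.0299 for Cs, -0.0344 to 0.0741 for Idh2, -0.277 to 0.103 for Idh3a, -0.112 to 0.210 for Sdhb and -0.0754 to 0.0961 for Mdh2. In scaled fragments with assembled transcripts they ran from -0.112 to 0.0793 for Cs, -0.0355 to 0.0704 for Idh2, -0.266 to 0.101 for Idh3a, -0.176 to 0.0523 for Sdhb and -0.0743 to 0.0913 for Mdh2. By the estimated fragments, Idh3a had the fewest of the enzymes (47 to 49 in a group).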
